A study of Mus musculus with 8 samples.

Results

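The genes described here encode the fibroblast growth factor (FGF) ligands and receptors, the bone morphogenetic proteins (BMPs), the activin subunits, the receptors of BMPs and activins, 3 secreted antagonists (Fst, Nog and Grem1), and the Id genes. They were taken by a rule on gene symbols that uses no measured value, and they comprised 54 of the 55450 genes in the deposited table. By role they were 18 FGF ligands, 4 FGF homologous factors (Fgf11 to Fgf14, which carry the family name but act inside the cell), 4 FGF receptors, 10 BMP ligands, Bmp1 (a metalloprotease and not a ligand), 2 activin subunits, 8 BMP or activin receptors, 3 antagonists and 4 Id genes. Of the 54 genes, 51 passed the filter on low counts and were tested, and Bmp15, Fgf5 and Fgf22 were not.

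Expression was measured by bulk RNA-sequencing of CD45-EpCAM+ thymic epithelial cells (TECs) sorted from mouse embryos at embryonic day 17 (E17). The cells came from embryos with a tdTomato reporter knocked in to Ccl21a, a chemokine gene of medullary TECs, and a Venus reporter transgene of Tnfrsf11a, the gene of the receptor RANK. Populations were separated by the 2 reporters into CCL21+RANK- TECs (3 libraries), CCL21-RANK+ TECs (3 libraries) and CCL21-RANK- TECs (2 libraries). They are called CCL21+, RANK+ and reporter-negative TECs from here on. All 3 groups share the age, the sort on CD45 and EpCAM and both reporters, and they were separated by reporter fluorescence alone. A cell is therefore placed by its reporter, and a cell that has the protein but little fluorescence is counted as negative. The study's reporting checklist describes its replicates as biological. Neither the labels nor the methods say whether each library here came from 1 embryo or a pool, and the p-values measure the spread between these libraries. The library totals were 59677342, 46003149 and 55116934 counts in CCL21+ TECs, 57286773, 50146758 and 42751858 in RANK+ TECs, and 67451448 and 71625319 in reporter-negative TECs.

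FGF ligands bind receptor tyrosine kinases and act mainly through the MAP kinase cascade, which switches on feedback genes of the Spry, Dusp and Etv families. In the embryonic thymus, mesenchymal cells make FGF7 and FGF10, which are read by an epithelial form of FGFR2 and drive TEC growth. BMPs and activins bind pairs of type I and type II serine-threonine kinase receptors and act through SMAD proteins, with the Id genes among the direct targets of BMP, while secreted antagonists such as noggin, gremlin and follistatin hold the ligands away from their receptors.

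Levels are given as RPKM, the count of a gene scaled by its merged exon length in kilobases and by the library total, and differences as log2 fold changes from the quasi-likelihood test of edgeR, adjusted by Benjamini-Hochberg over all 21451 genes tested. A gene was called when its edgeR adjusted p was under 0.05, its fold change was over 1.5 and its mean RPKM was over 1 in the higher group. All fold changes are CCL21+ over RANK+, RANK+ over reporter-negative, or CCL21+ over reporter-negative TECs, and a pair of values for a gene gives the first and the second of these in that order unless stated. Where RNA of a group is lower, fewer cells with the transcript and less of it per cell cannot be told apart in bulk samples.

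In RANK+ TECs the ligands Fgf21, Bmp2 and Bmp3, the antagonist Grem1, the type I receptor Acvr1c, and Fgf13 were higher than in either other population, by 9.82-fold (Fgf13) to 218-fold (Grem1), whereas the main FGF receptor Fgfr2, the intracellular factors Fgf14 and Fgf11, and the receptors Acvr1b, Bmpr1a and Bmpr2 were lower, by 1.75-fold (Bmpr1a) to 6.68-fold (Fgf11). Between CCL21+ and reporter-negative TECs the called genes included Id1, Bmpr1b and Inhbb, lower in CCL21+ TECs, and Bmp6 and Fst, higher in them.

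Between CCL21+ and RANK+ TECs, 22 of the 51 tested members were called, 10 higher and 12 lower in CCL21+ TECs, where 30.9% of all tested genes were called. Between RANK+ and reporter-negative TECs, 25 members were called, 11 higher and 14 lower in RANK+ TECs, against 29.5% of all genes. Between CCL21+ and reporter-negative TECs, 8 members were called, 4 in each direction, against 8.02% of all genes. The number called here changed with single libraries, although 5 of the 8 calls held under each omission of 1 library. Without CCL21+ replicate 1, 6 members were called, beside 1236 of all genes in place of 1720. Without RANK+ replicate 1, 12 members were called, beside 2066 of all genes. The counts without either reporter-negative library are given under the processing. On the adjusted p alone, 36, 38 and 9 members passed in these 3 comparisons in turn, beside 53.7%, 49.0% and 11.4% of all genes in either direction. The 36 were 13 higher and 23 lower in CCL21+ TECs (23.1% and 30.6% of all genes), the 38 were 23 higher and 15 lower in RANK+ TECs (27.0% and 21.9%), a majority opposite to that of the calls, and the 9 were 5 higher and 4 lower in CCL21+ TECs (6.28% and 5.15%). The members higher in RANK+ TECs on the adjusted p alone include low genes that passed the filter through the RANK+ libraries. Among them are Bmp10, several FGF ligands and, against reporter-negative TECs alone, Nog. For such genes a higher level in RANK+ TECs was built in by the filter. These splits are therefore no measure of the members against all genes. The 3 comparisons share libraries and are not independent of each other. In all, 30 of the 51 were called in at least 1 comparison, where 37.5% of all tested genes were, and 33 members had a mean RPKM over 1 in at least 1 group.

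The median log2 fold change of the 51 members was -1.74 between CCL21+ and RANK+ TECs, beside -0.11 over all tested genes. It was 1.30 between RANK+ and reporter-negative TECs, beside 0.06, and -0.10 between CCL21+ and reporter-negative TECs, beside 0.00. These medians were the same to 2 decimals when genes at 0 counts throughout a group were set to the bound that 3 counts over that group allow. Many low members passed the filter through RANK+ libraries alone, so the medians include genes whose higher level there was built in by the filter.

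**Figure D1:**
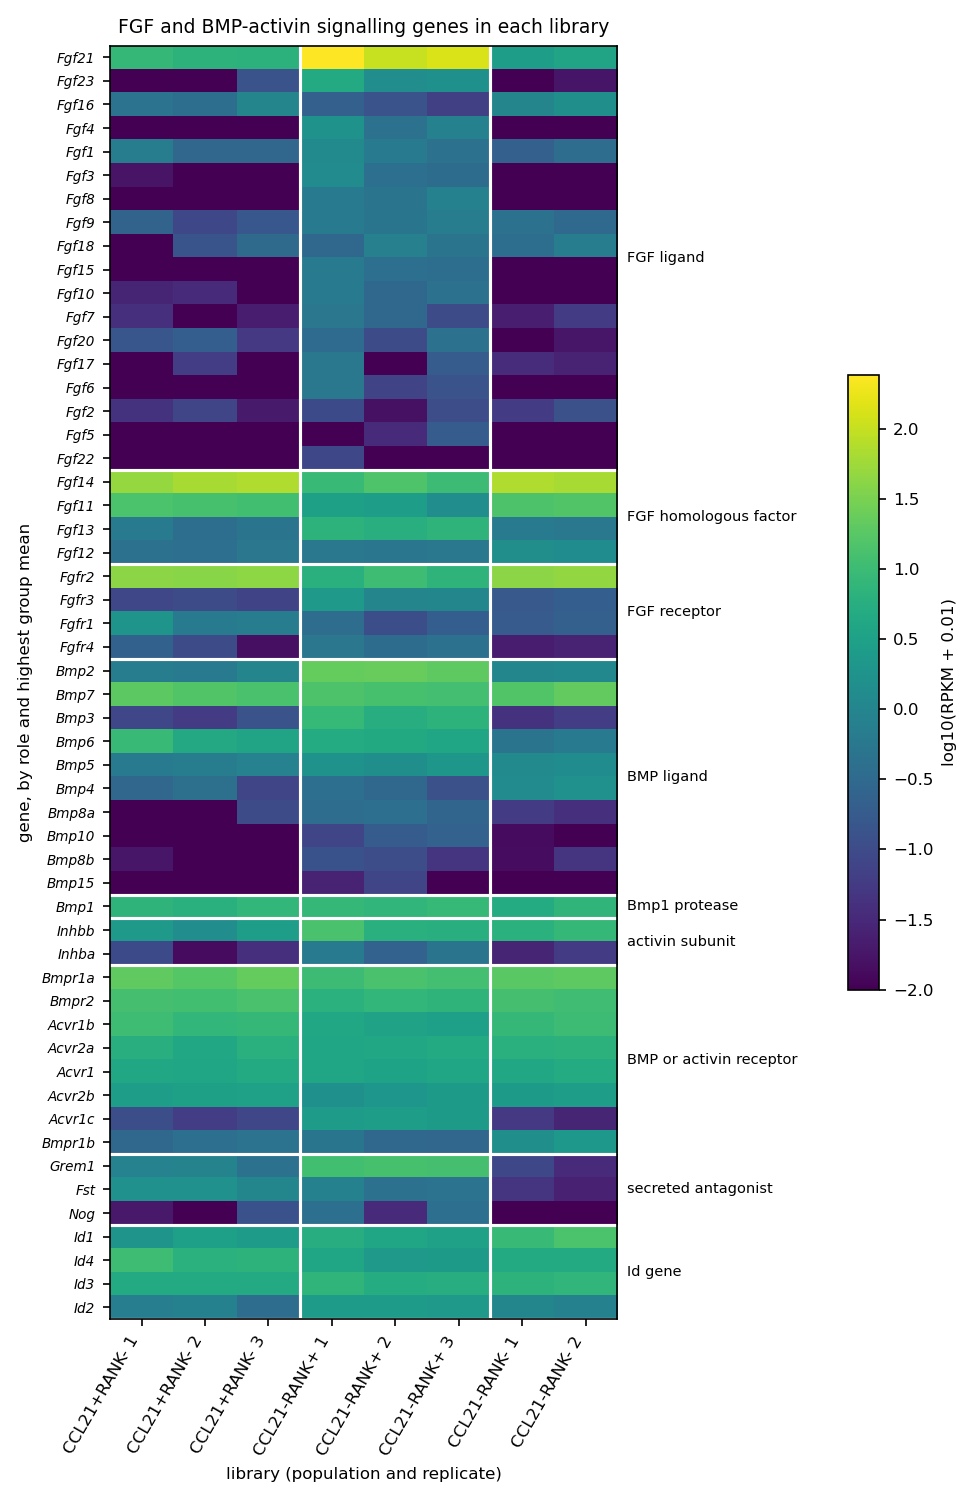
Heat map of the 54 genes by role (rows) in the 8 libraries (columns), with colour giving log10 of RPKM plus 0.01. Most FGF ligands were low in every library, Fgf21 was the brightest ligand in the RANK+ libraries, and Fgfr2 and Fgf14 were dimmer there than in the other 5 libraries.

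Upstream sequences are shown for the 2 most abundant members, among those with an entry in the RefSeq promoter table, that were called higher in RANK+ TECs than in both other groups (Fgf21 and Grem1) and the 2 called lower than in both (Fgf14 and Fgfr2), so that the genes on which the results turn can be read beside their values. Each is the 250 bases before the RefSeq transcription start in GRCm38.p6, written 5′ to 3′ on the gene's strand. Fgf21 lies at chr7:45615491-45615740, Grem1 at chr2:113758649-113758898, Fgf14 at chr14:124192547-124192796 and Fgfr2 at chr7:130266809-130267058, all on the minus strand. GENCODE places transcripts of Fgf14 and Fgfr2 further upstream, so each window stands for 1 start. Capitals mark matches, on either strand, to a TATA element (TATAAA), an amino acid response element (TTGCATCA), an E-box (CACGTG), a BMP-type GC element (GGCGCC) and a GC box (GGGCGG, which reads CCGCCC on the other strand).
Fgf21: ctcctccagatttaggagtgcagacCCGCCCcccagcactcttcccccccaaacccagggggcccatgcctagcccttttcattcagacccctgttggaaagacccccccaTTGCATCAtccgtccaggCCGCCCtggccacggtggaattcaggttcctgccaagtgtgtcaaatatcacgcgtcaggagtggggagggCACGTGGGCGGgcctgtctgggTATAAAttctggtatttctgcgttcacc
Grem1: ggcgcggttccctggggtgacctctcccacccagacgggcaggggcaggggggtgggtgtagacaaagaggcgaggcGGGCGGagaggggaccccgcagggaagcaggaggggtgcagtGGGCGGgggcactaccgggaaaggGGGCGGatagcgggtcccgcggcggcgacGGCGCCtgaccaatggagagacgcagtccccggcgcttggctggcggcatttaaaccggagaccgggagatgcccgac
Fgf14: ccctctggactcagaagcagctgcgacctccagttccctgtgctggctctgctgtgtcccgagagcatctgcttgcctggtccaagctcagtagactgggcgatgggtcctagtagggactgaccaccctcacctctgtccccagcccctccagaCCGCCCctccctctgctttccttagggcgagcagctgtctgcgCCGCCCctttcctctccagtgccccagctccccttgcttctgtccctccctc
Fgfr2: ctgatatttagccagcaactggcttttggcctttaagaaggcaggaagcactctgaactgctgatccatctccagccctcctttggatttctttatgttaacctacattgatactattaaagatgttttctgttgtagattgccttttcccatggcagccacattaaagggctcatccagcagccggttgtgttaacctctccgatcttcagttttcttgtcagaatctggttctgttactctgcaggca

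The Fgf21 window held a TATAAA 28 to 23 bases before the start, a TTGCATCA 139 to 132 bases before it, a CACGTG that overlaps a GGGCGG by a single base, and 3 GGGCGG matches in all. The Grem1 window held 3 GGGCGG and 1 GGCGCC, the Fgf14 window held 2 GGGCGG, and the Fgfr2 window held none of the 5. Over the 32851 promoters of the table, windows of the same length held TATAAA in 12.4%, TTGCATCA in 0.791%, CACGTG in 6.02%, GGCGCC in 9.59% and GGGCGG in 32.7%. Of the 40 members with a promoter in the table, TTGCATCA was found in Fgf21 alone. A match describes the letters of the window and no binding was measured.

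Among FGF ligands, Fgf21, an endocrine FGF known as a stress and fasting hormone, was by far the most abundant. Its RPKM was 241, 103 and 134 in the RANK+ libraries, 8.39, 6.93 and 6.56 in the CCL21+ libraries, and 2.73 and 3.61 in the reporter-negative libraries. All 3 RANK+ libraries lay far above the other 5, and the CCL21+ libraries lay above the reporter-negative libraries. The log2 fold change was -4.30 (SE 0.28, edgeR adjusted p = 2.18e-06) for CCL21+ against RANK+ TECs and 5.52 (SE 0.36, edgeR adjusted p = 2.59e-06) for RANK+ against reporter-negative TECs. Fgf21 was also called higher in CCL21+ than in reporter-negative TECs, by 1.21 (SE 0.30, edgeR adjusted p = 0.0314), but leaving out either reporter-negative library, CCL21+ replicate 1 or 2, or RANK+ replicate 3 ended that call, with values from 1.09 to 1.34. Gene Fgf21 spans chr7:45613886-45615490 in 3 merged exons.

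The other ligands were low. Only 4 of the 18 reached a mean RPKM of 1 in any group, namely Fgf21, Fgf23, Fgf4 and Fgf16. Fgf23, an endocrine FGF that lowers blood phosphate, had 4.70, 1.41 and 1.56 RPKM in the RANK+ libraries, 0, 0 and 0.12 in the CCL21+ libraries, and 0 and 0.0077 in the reporter-negative libraries. It was called higher in RANK+ TECs than in CCL21+ TECs (log2 fold change -5.83, SE 1.12, edgeR adjusted p = 0.00178) and than in reporter-negative TECs (edgeR adjusted p = 0.00194), where the group held a single count against 737, a ratio, scaled to library totals, of 682.5 with a counting interval from 122.1 to 26990. The 3 RANK+ libraries lay above the other 5 and replicate 1 was the highest of them. Fgf23 passed the filter on low counts through the RANK+ libraries, so a higher level there was built in by the filter.

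Fgf4, a ligand of early embryonic and limb outgrowth, had 1.78, 0.431 and 0.835 RPKM in the RANK+ libraries and 0 counts in all 5 others. With 3 counts over a group as the floor, it was at least 181.3-fold higher than in CCL21+ TECs and at least 156.8-fold higher than in reporter-negative TECs (edgeR adjusted p = 0.000401 and 0.000972). Both calls were lost without RANK+ replicate 1, since the mean RPKM then fell under 1. Fgf16, a heart-expressed ligand, ran the other way, with 0.991 and 1.5 RPKM in reporter-negative libraries, 0.458, 0.37 and 0.982 in CCL21+ libraries, and 0.212, 0.121 and 0.0569 in RANK+ libraries. It was called lower in RANK+ than in reporter-negative TECs (log2 fold change -3.35, SE 0.64, edgeR adjusted p = 0.00197), a call that was lost without reporter-negative replicate 2.

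On the adjusted p alone, 10 of the 16 tested FGF ligands were lower in CCL21+ than in RANK+ TECs and 1 was higher, where 30.6% and 23.1% of all genes were. Against reporter-negative TECs, 10 were higher in RANK+ TECs and 1 was lower, beside 27.0% and 21.9% of all genes. These ligands include Fgf3, Fgf6, Fgf8, Fgf10 and Fgf15, whose means in RANK+ TECs were between 0.249 and 0.67 RPKM. These 5 and Fgf4 had between 0 and 10 counts over either other group and passed the filter through the RANK+ libraries. Their higher level there was built in by the filter, and the 10 of 16 is no measure of the ligands against all genes. Fgf8, a ligand of pharyngeal and limb patterning, had 0.646, 0.473 and 0.832 RPKM there and 0 counts in the other 5 libraries, at least 46.4-fold and at least 40.1-fold lower in CCL21+ and reporter-negative TECs. In all, 6 of the 18 ligands were at 0 counts in each of those 5 libraries.

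Fgf7 and Fgf10, the mesenchymal ligands of the epithelial FGF receptor, were low in every library. Fgf10 had 0.656, 0.277 and 0.432 RPKM in RANK+ TECs, 0.0182, 0.0236 and 0 in CCL21+ TECs, and 0 in both reporter-negative libraries. Fgf7 reached 0.532 RPKM in RANK+ replicate 1 and at most 0.0473 in the CCL21+ and reporter-negative libraries. Neither reached the level at which a gene could be called. Fgf1, Fgf2, Fgf17 and Fgf18 passed no test in any comparison, with group means of at most 0.758 RPKM.

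**Figure D2:**
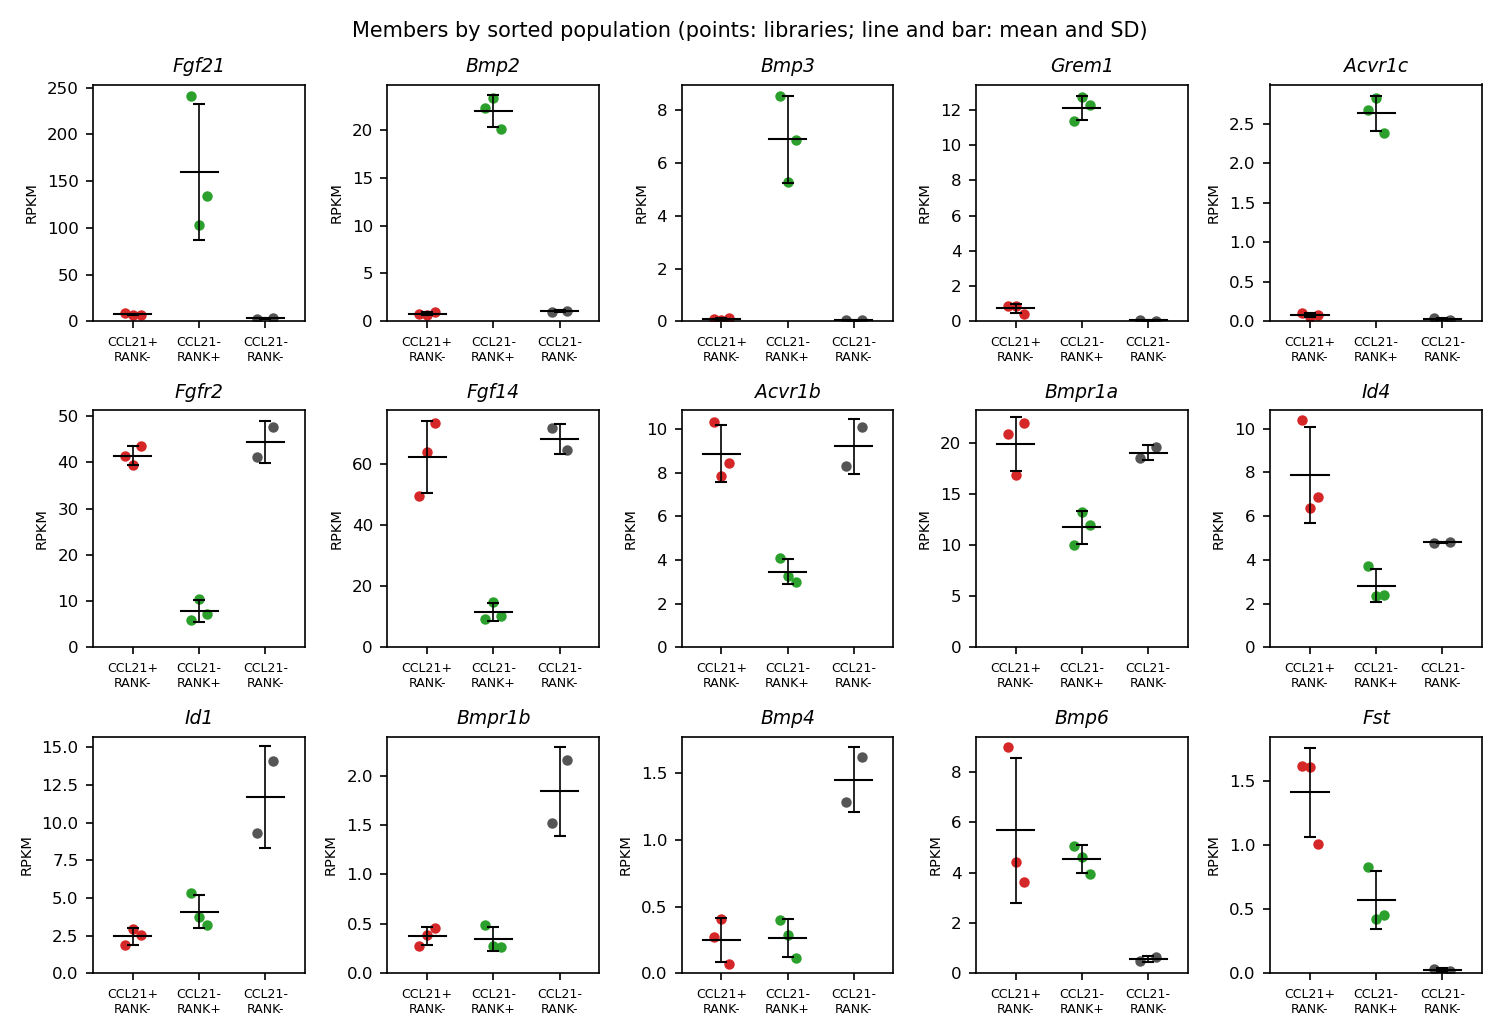
RPKM (linear axis from 0) in each of the 8 libraries (points, by population) for the members named in the panels, with a line at the group mean and a bar for the SD. Fgf21, Bmp2, Bmp3 and Grem1 were highest in the 3 RANK+ libraries, Fgfr2 and Fgf14 were lowest in them, and Id1 was highest in the 2 reporter-negative libraries.

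The main FGF receptor of these cells was Fgfr2, and it fell in RANK+ TECs. Its RPKM was 41.4, 39.4 and 43.5 in CCL21+ libraries, 41.2 and 47.7 in reporter-negative libraries, and 6, 10.5 and 7.18 in RANK+ libraries. The RANK+ libraries lay below the other 5, and the CCL21+ and reporter-negative libraries overlapped. The log2 fold change was 2.5 (SE 0.21, edgeR adjusted p = 1.01e-05) for CCL21+ against RANK+ TECs and -2.59 (SE 0.23, edgeR adjusted p = 1.44e-05) for RANK+ against reporter-negative TECs. Between CCL21+ and reporter-negative TECs it was -0.10 (SE 0.23, edgeR adjusted p = 0.861). The table counts genes, so the epithelial and mesenchymal splice forms of Fgfr2 were not separated, and 3.0% of its exon bases are shared with Ctbp2 on the same strand.

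Fgfr3, a receptor best known from the growth plate, had 2.31, 0.964 and 1.00 RPKM in RANK+ libraries and between 0.0684 and 0.193 in the other 5. It was called higher in RANK+ TECs than in CCL21+ TECs (log2 fold change -4.02, SE 0.41, edgeR adjusted p = 2.87e-05) and than in reporter-negative TECs (2.89, SE 0.45, edgeR adjusted p = 0.000535). Without RANK+ replicate 1 the values were -3.55 and 2.43 but the mean RPKM fell under 1 and the calls were lost.

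Fgfr1, the receptor of mesenchymal cells in most tissues, had 1.84, 0.643 and 0.698 RPKM in CCL21+ libraries, 0.357, 0.103 and 0.197 in RANK+ libraries, and 0.174 and 0.209 in reporter-negative libraries. It was called higher in CCL21+ TECs than in either other group (log2 fold changes 2.42, SE 0.51, and 2.47, SE 0.59, edgeR adjusted p = 0.00288 and 0.0263), and both calls were lost without CCL21+ replicate 1, at 1.76 and 1.81. The call against reporter-negative TECs was also lost without either reporter-negative library. Replicate 1 was also the CCL21+ library with the highest parathyroid gene expression, whose values are given with the cell type markers. Fgfr4 was under 1 RPKM in all 8 libraries and was not called.

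The FGF homologous factors, which modulate voltage-gated sodium channels, split by gene. Fgf14 was the most abundant member of all in CCL21+ TECs, with 49.5, 63.9 and 73.1 RPKM, and had 71.5 and 64.5 in reporter-negative TECs. In RANK+ TECs it had 9.32, 14.9 and 10.2 RPKM (log2 fold changes 2.54, SE 0.23, and -2.68, SE 0.24, edgeR adjusted p = 1.25e-05 and 1.65e-05). Fgf11 was called in the same direction, with 13.9, 12.7 and 11.2 RPKM in CCL21+, 14.5 and 15.3 in reporter-negative and 3.14, 2.71 and 1.42 in RANK+ libraries (log2 fold changes 2.5, SE 0.25, and -2.74, SE 0.27, edgeR adjusted p = 2.67e-05 and 2.74e-05). For both genes the RANK+ libraries lay below the other 5.

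Fgf13 was called in the opposite direction. It had 6.72, 5.77 and 6.95 RPKM in RANK+ libraries and between 0.379 and 0.667 in the 5 others (log2 fold changes -3.56, SE 0.23, and 3.30, SE 0.27, edgeR adjusted p = 2.12e-06 and 9.33e-06). Fgf12 was highest in reporter-negative TECs, at 1.46 and 1.35 RPKM against 0.386 to 0.554 in the other 6 libraries (log2 fold changes of CCL21+ and of RANK+ over reporter-negative TECs -1.67, SE 0.24, and -1.5, SE 0.24, edgeR adjusted p = 0.00258 and 0.000742).

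BMP ligands were led by Bmp2 and Bmp7. Bmp2, a classical BMP that signals to the SMAD1 and SMAD5 branch, had 22.3, 23.3 and 20.1 RPKM in RANK+ libraries, 0.721, 0.648 and 0.975 in CCL21+ libraries, and 1.00 and 1.12 in reporter-negative libraries. The RANK+ replicates were close to each other and lay 26.0-fold above CCL21+ and 19.1-fold above reporter-negative TECs (log2 fold changes -4.70, SE 0.15, and 4.25, SE 0.17, edgeR adjusted p = 1.01e-07 and 3.22e-07). Between CCL21+ and reporter-negative TECs the difference was -0.45 (SE 0.15, edgeR adjusted p = 0.0917). Gene Bmp2 spans chr2:133552159-133562885 on the plus strand.

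Bmp3, an atypical BMP that opposes the others by way of activin receptors, had 8.56, 5.27 and 6.89 RPKM in RANK+ libraries and between 0.0341 and 0.123 in the other 5. The log2 fold changes were -6.26 (SE 0.28, edgeR adjusted p = 4.29e-07) and 7.18 (SE 0.36, edgeR adjusted p = 7.19e-07). Bmp5, which is close in sequence to Bmp6 and Bmp7, had 1.77, 1.51 and 2.1 RPKM in RANK+ libraries against 0.612, 0.675 and 0.861 in CCL21+ libraries (log2 fold change -1.21, SE 0.23, edgeR adjusted p = 0.00174), and 1.23 and 1.37 in reporter-negative libraries. Of the exon bases of Bmp5, 46.7% lie opposite the antisense gene Gm26903, which had a mean of 3.1 counts.

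Bmp6 was lowest in reporter-negative TECs. Its RPKM was 0.475 and 0.637 there, 8.98, 4.43 and 3.62 in CCL21+ libraries, and 5.05, 4.64 and 3.96 in RANK+ libraries. It was called higher in CCL21+ than in reporter-negative TECs (log2 fold change 3.37, SE 0.40, edgeR adjusted p = 0.000969) and in RANK+ than in reporter-negative TECs (2.92, SE 0.39, edgeR adjusted p = 0.000223). Bmp6 shares 5.7% of its exon bases with Txndc5 on the opposite strand, a gene with a mean of 5234.9 counts, and the sources used here do not give whether counting used strand.

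Bmp4, the BMP that mesenchyme supplies to the thymic epithelium, was highest in reporter-negative TECs. It had 1.28 and 1.62 RPKM there, 0.268, 0.406 and 0.0726 in CCL21+ libraries, and 0.396, 0.284 and 0.115 in RANK+ libraries. The reporter-negative libraries lay above the other 6, and the CCL21+ and RANK+ libraries overlapped. It was called lower in RANK+ TECs (log2 fold change -2.56, SE 0.72, edgeR adjusted p = 0.015), and the call was lost without either reporter-negative library or RANK+ replicate 3. For CCL21+ against reporter-negative TECs the difference was -2.49 (SE 0.72, edgeR adjusted p = 0.0541).

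Bmp7, a BMP of epithelia and kidney, was at 11.6 to 21.6 RPKM in all 8 libraries and was called lower in RANK+ than in reporter-negative TECs by a small margin (log2 fold change -0.64, SE 0.18, edgeR adjusted p = 0.014). The call was not stable. It missed the fold threshold under both other scalings, with DESeq2's Wald test, with no expression filter and with the replicate block (-0.52, edgeR adjusted p = 0.0252), it missed both thresholds with at least 10 counts required in every library (-0.43, edgeR adjusted p = 0.0691), and it was lost without RANK+ replicate 3 or reporter-negative replicate 2. In reporter-negative replicates its RPKM was 15.5 and 21.6, in RANK+ replicates 14.4, 12.6 and 11.6, and in CCL21+ replicates 19.3, 15.8 and 13.5. Bmp8a and Bmp8b, near-identical copies whose reads can be divided wrongly between them, and Bmp10 stayed under 0.4 RPKM in every library. Bmp1, whose product cleaves procollagen and frees BMPs from chordin, had 4.98 to 8.53 RPKM and was not called.

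Activin is a dimer of subunits. Inhbb, which encodes the βB subunit, had 2.28, 1.37 and 2.82 RPKM in CCL21+ libraries, 13.3, 5.95 and 5.89 in RANK+ libraries, and 6.34 and 8.20 in reporter-negative libraries. The CCL21+ libraries lay below the other 5 (log2 fold changes of CCL21+ over RANK+ and over reporter-negative TECs -1.83, SE 0.31, and -1.76, SE 0.33, edgeR adjusted p = 0.000771 and 0.00848), and the call against reporter-negative TECs was lost without reporter-negative replicate 2 (edgeR adjusted p = 0.0696). Between the other two populations the difference was 0.07 (SE 0.33, edgeR adjusted p = 0.881). Inhba, which encodes the βA subunit, stayed under 1 RPKM in all 8 libraries.

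The receptors for these ligands were, apart from Acvr1c, called lower or not called in RANK+ TECs. Bmpr1a, the main type I BMP receptor here, had 20.8, 16.9 and 21.9 RPKM in CCL21+ libraries, 18.5 and 19.5 in reporter-negative libraries, and 10.01, 13.2 and 11.9 in RANK+ libraries. Bmpr2, the type II BMP receptor, had 12.5, 11.5 and 13.2 RPKM, 12.5 and 11.1 RPKM, and 6.31, 7.96 and 7.03 RPKM in the same order. Both were called lower in RANK+ TECs than in either other group, with log2 fold changes of 0.86 and 0.92 for CCL21+ against RANK+ TECs (SE 0.14 each, edgeR adjusted p = 0.000561 and 0.000379) and -0.81 and -0.85 for RANK+ against reporter-negative TECs (SE 0.15 each, edgeR adjusted p = 0.00172 and 0.00122).

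Acvr1b and Acvr1c encode the activin type I receptors ALK4 and ALK7, and they went in opposite directions. Acvr1b had 10.3, 7.85 and 8.45 RPKM in CCL21+ libraries, 8.32 and 10.1 in reporter-negative libraries, and 4.11, 3.29 and 3.00 in RANK+ libraries (log2 fold changes 1.48, SE 0.14, and -1.53, SE 0.15, edgeR adjusted p = 1.92e-05 and 3.13e-05). Acvr1c had 2.68, 2.83 and 2.39 RPKM in RANK+ libraries and at most 0.101 in the other 5 (log2 fold changes -5.00, SE 0.34, and 6.29, SE 0.45, edgeR adjusted p = 2.82e-06 and 4.23e-06). For both genes the RANK+ libraries were separate from the other 5.

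Bmpr1b, a second type I BMP receptor, had 1.52 and 2.16 RPKM in reporter-negative libraries and between 0.271 and 0.489 in the other 6. It was called lower in CCL21+ TECs (log2 fold change -2.29, SE 0.33, edgeR adjusted p = 0.00235) and in RANK+ TECs (-2.53, SE 0.33, edgeR adjusted p = 0.000196) than in reporter-negative TECs. Acvr2b had 2.69, 3.03 and 3.23 RPKM in CCL21+ and 1.55, 1.96 and 2.41 in RANK+ libraries (log2 fold change 0.71, SE 0.20, edgeR adjusted p = 0.0146), a call that was lost without RANK+ replicate 1 and with at least 10 counts required in every library. Acvr2a had 5.96 and 6.49 RPKM in reporter-negative and 3.87, 4.25 and 4.74 in RANK+ libraries (log2 fold change -0.65, SE 0.15, edgeR adjusted p = 0.00556), a call that was lost with either other scaling, with DESeq2's Wald test, with at least 10 counts required in every library and without RANK+ replicate 1. Acvr1, which encodes ALK2, had 3.52 to 5.00 RPKM in all 8 libraries and was not called.

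Grem1, which encodes gremlin, an antagonist of BMP2, BMP4 and BMP7, had 11.4, 12.7 and 12.3 RPKM in RANK+ libraries, 0.881, 0.886 and 0.429 in CCL21+ libraries, and 0.0786 and 0.0236 in reporter-negative libraries. All 3 groups were separate. The log2 fold change was -3.92 (SE 0.36, edgeR adjusted p = 1.66e-05) for CCL21+ against RANK+ TECs and 7.77 (SE 0.56, edgeR adjusted p = 4.53e-06) for RANK+ against reporter-negative TECs. For CCL21+ against reporter-negative TECs it was 3.85 (SE 0.51, edgeR adjusted p = 0.00169), but with a mean of 0.732 RPKM in the higher group the gene was not called.

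Fst, which encodes follistatin, the activin-binding antagonist, was instead highest in CCL21+ TECs. It had 1.62, 1.61 and 1.01 RPKM there, 0.833, 0.426 and 0.454 in RANK+ libraries, and 0.0355 and 0.0152 in reporter-negative libraries. It was called higher in CCL21+ than in reporter-negative TECs (log2 fold change 5.79, SE 0.60, edgeR adjusted p = 0.000495) and than in RANK+ TECs (1.46, SE 0.40, edgeR adjusted p = 0.0111), and the latter call was lost without CCL21+ replicate 2 or RANK+ replicate 3. Nog, which encodes noggin, stayed under 0.4 RPKM in all 8 libraries.

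The Id genes encode dominant-negative partners of basic helix-loop-helix factors and are common reporters of BMP signalling. Id1 was highest in reporter-negative TECs, with 9.32 and 14.1 RPKM, against 1.88, 2.96 and 2.53 in CCL21+ and 5.33, 3.73 and 3.23 in RANK+ libraries. It was called lower in CCL21+ TECs (log2 fold change -2.23, SE 0.30, edgeR adjusted p = 0.00168) and in RANK+ TECs (-1.63, SE 0.29, edgeR adjusted p = 0.00143) than in reporter-negative TECs. Between CCL21+ and RANK+ TECs it was not called (-0.60, SE 0.27, edgeR adjusted p = 0.0873).

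Id2 and Id4 went opposite ways. Id2 had 2.48, 2.67 and 2.28 RPKM in RANK+ libraries against 0.742, 0.829 and 0.357 in CCL21+ libraries (log2 fold change -1.80, SE 0.38, edgeR adjusted p = 0.00309), and 1.03 and 0.819 in reporter-negative libraries (1.30, SE 0.43, edgeR adjusted p = 0.0306, lost without any of RANK+ replicates 2 and 3 and either reporter-negative library). Id4 had 10.4, 6.35 and 6.89 RPKM in CCL21+ libraries, 3.71, 2.37 and 2.39 in RANK+ libraries and 4.78 and 4.82 in reporter-negative libraries. It was called lower in RANK+ TECs than in CCL21+ TECs (1.61, SE 0.22, edgeR adjusted p = 0.000197) and than in reporter-negative TECs (-0.90, SE 0.23, edgeR adjusted p = 0.0108, lost without RANK+ replicate 3 or reporter-negative replicate 1). Id3 had 4.71 to 7.76 RPKM in the 8 libraries and was not called.

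**Figure D3:**
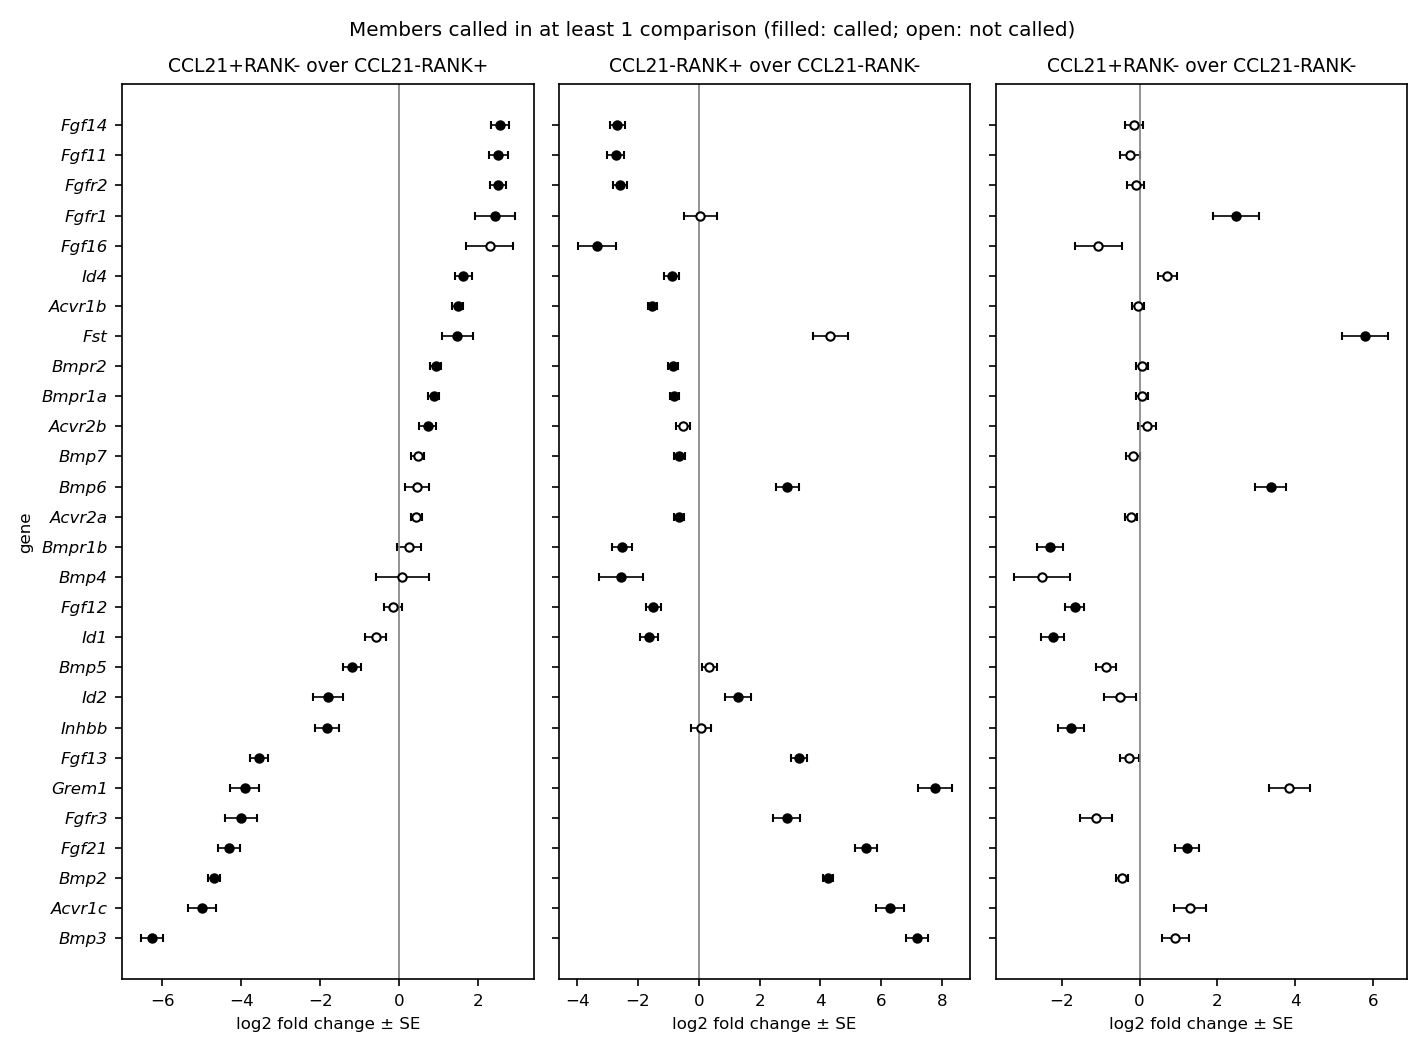
Log2 fold changes with SE from edgeR for 28 of the 30 members called in at least 1 comparison, in the 3 comparisons, filled where called and open where not. Fgf4 and Fgf23 are left out because they were at 0 or 1 count in a group. Fgf21, Bmp2, Bmp3, Grem1 and Acvr1c lie far on the RANK+ side of both comparisons with that group, and Fgfr2, Fgf14 and Fgf11 on the other side.

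Other genes of the FGF pathway were read from a list of 28 genes that excludes the members and holds coreceptors, adaptors and feedback genes, all of them tested. In CCL21+ against RANK+ TECs, 15 were called higher and 3 lower, against 15.4% of all genes in each direction. In RANK+ against reporter-negative TECs, 2 were called higher and 13 lower (14.4% and 15.1% of all genes), and in CCL21+ against reporter-negative TECs 3 higher and 7 lower (4.35% and 3.66%).

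The listed feedback genes of the MAP kinase cascade did not share 1 order. Etv5, an ETS transcription factor induced by FGF, had 15.7 and 22.2 RPKM in reporter-negative libraries, 6.42, 3.25 and 3.58 in CCL21+ libraries, and 1.77, 0.782 and 0.872 in RANK+ libraries. The 3 groups did not overlap, and all 3 comparisons were called (log2 fold changes 2.09, SE 0.33, for CCL21+ against RANK+, -4.18, SE 0.37, for RANK+ against reporter-negative, and -2.09, SE 0.34, for CCL21+ against reporter-negative TECs, edgeR adjusted p = 0.000521, 1.44e-05 and 0.00435).

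Etv4, its paralog, had 2.05, 1.17 and 1.52 RPKM in CCL21+, 0.602, 0.475 and 0.505 in RANK+ and 4.74 and 7.30 in reporter-negative libraries. Spry1, a Sprouty inhibitor of receptor tyrosine kinase signalling, had 5.52, 4.89 and 5.94 RPKM in CCL21+, 1.66, 1.91 and 1.66 in RANK+ and 15.4 and 23.5 in reporter-negative libraries. Both were called in all 3 comparisons, and for both the 3 groups did not overlap. Dusp6, a phosphatase of ERK, had 17.3, 12.8 and 12.0 RPKM in CCL21+, 4.45, 4.02 and 3.56 in RANK+ and 18.4 and 24.3 in reporter-negative libraries, and was called in both comparisons with RANK+ TECs but not between the other two (log2 fold change -0.59, SE 0.18, edgeR adjusted p = 0.0598).

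Spry2, another Sprouty gene, had 29.6 to 55.4 RPKM over the 8 libraries and was called in no comparison. Spry4 was lowest in CCL21+ TECs, with 0.708, 0.489 and 0.538 RPKM, against 2.93, 1.58 and 1.78 in RANK+ libraries (log2 fold change -1.72, SE 0.25, edgeR adjusted p = 0.000352) and 2.33 and 3.10 in reporter-negative libraries (-2.22, SE 0.27, edgeR adjusted p = 0.00115). Dusp4, a nuclear phosphatase of MAP kinases, was highest in RANK+ TECs at 108, 64.5 and 71.5 RPKM, against 7.12, 3.71 and 4.26 in CCL21+ and 1.24 and 1.26 in reporter-negative libraries (log2 fold changes -3.88, SE 0.26, and 5.89, SE 0.35, edgeR adjusted p = 2.56e-06 and 1.63e-06).

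Among coreceptors and carriers, Kl encodes Klotho, the coreceptor of FGF23. It had 13.1, 2.58 and 4.79 RPKM in CCL21+ libraries, 0.414, 0.239 and 0.464 in RANK+ libraries, and 0.0397 and 0.0793 in reporter-negative libraries. It was called higher in CCL21+ TECs than in RANK+ TECs (log2 fold change 4.32, SE 0.56, edgeR adjusted p = 0.00016) and than in reporter-negative TECs (6.84, SE 0.79, edgeR adjusted p = 0.000868). Klb, which encodes the coreceptor of FGF21 and is named here after its values were seen, stayed at or under 0.161 RPKM in every library and was listed at 0 in both reporter-negative libraries.

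Fgfbp1, which encodes a carrier that frees FGFs from the matrix, had 13.4, 6.28 and 4.67 RPKM in RANK+ libraries against 0.97 to 2.15 in the other 5, and was called higher there in both comparisons. Flrt2, an FGF receptor-binding adhesion molecule, was highest in CCL21+ TECs with 15.7, 5.06 and 6.24 RPKM, against 0.995 to 1.88 in the other 5 libraries. Its relative Flrt1 was highest in reporter-negative TECs with 11.3 and 15.8 RPKM and lowest in RANK+ TECs with 1.6 to 2.5 RPKM, and was called in all 3 comparisons.

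For BMP and activin, the list outside the members had 54 genes, of which 51 were tested. In CCL21+ against RANK+ TECs, 18 were called higher and 7 lower (35.3% and 13.7%), beside 15.4% of all genes in each direction. In RANK+ against reporter-negative TECs, 6 were called higher and 16 lower (11.8% and 31.4%), beside 14.4% and 15.1%. In CCL21+ against reporter-negative TECs 2 were called in each direction (3.92%), beside 4.35% and 3.66%. These 2, the 7 and the 6 were near the shares of all genes. This list, too, was chosen with earlier results known and was not matched to all genes for level, so the shares are no test of it.

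Of the genes called highest in RANK+ TECs, Sost, which encodes sclerostin, known best as a WNT antagonist, had 6.74, 1.67 and 2.1 RPKM in RANK+ libraries, 0 counts in CCL21+ libraries, and 0 and 0.0135 RPKM in reporter-negative libraries. Gdf15, a stress cytokine of the TGF-β superfamily, had 7.19, 2.81 and 3.84 RPKM, and Mstn, which encodes myostatin, a ligand of activin receptors, had 3.74, 3.12 and 3.6 RPKM in RANK+ libraries. In the other 5 libraries, Gdf15 was at most 0.0271 and Mstn at most 0.313 RPKM. Sost and Gdf15 had at most 3 counts in any of those 5 libraries and passed the filter on low counts through the RANK+ libraries. Their higher level there was built in by the filter, and they are among the 7 and the 6 calls above.

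Of the genes called lowest in RANK+ TECs, Tgfbr2, the type II TGF-β receptor gene, had 1.13, 2.01 and 1.73 RPKM in RANK+ libraries against 12.7 to 17 in the other 5 (log2 fold changes 3.18, SE 0.21, and -3.44, SE 0.23, edgeR adjusted p = 2.55e-06 and 2.75e-06). Tgfbr3, which encodes betaglycan, a coreceptor of TGF-β and inhibin, had 3.06 to 4.14 RPKM in RANK+ and 19.1 to 30.8 in the other libraries. Rgma, a BMP coreceptor gene, had 2.30 to 3.64 RPKM in RANK+, 21.8 to 24.0 in CCL21+ and 10.5 and 13.4 in reporter-negative libraries, and was called in all 3 comparisons.

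Smad6 and Smad7 encode inhibitory SMADs that BMP and TGF-β induce as feedback. Smad6 had 9.83, 8.61 and 7.73 RPKM in CCL21+, 6.20 and 7.38 in reporter-negative, and 2.47, 2.66 and 2.95 in RANK+ libraries (log2 fold changes 1.82, SE 0.16, and -1.45, SE 0.17, edgeR adjusted p = 1.11e-05 and 9.38e-05). Smad7 was highest in CCL21+ TECs with 13.1, 9.28 and 9.70 RPKM, against 7.12, 4.85 and 7.00 in RANK+ libraries (0.89, SE 0.17, edgeR adjusted p = 0.00175) and 5.36 and 6.74 in reporter-negative libraries (0.83, SE 0.19, edgeR adjusted p = 0.0233). Smad9, a BMP-responsive receptor SMAD, had 0.247 to 0.58 RPKM in RANK+ libraries and 1.79 to 2.69 in the others.

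Among downstream genes, Hey1, a transcription factor gene of the NOTCH and BMP pathways, had 9.19, 14.7 and 10.2 RPKM in RANK+ libraries and 45.2 to 75.8 in the others, and was called in both comparisons with RANK+ TECs. Atoh8, a target of SMAD1 and SMAD5 signalling, was lowest in CCL21+ TECs with 0.134, 0.243 and 0.55 RPKM, against 1.05 and 1.83 in reporter-negative libraries (log2 fold change -2.23, SE 0.48, edgeR adjusted p = 0.0164) and 2.81 to 3.08 in RANK+ libraries. Nbl1, which encodes a DAN-family BMP antagonist, was highest in reporter-negative TECs with 25.8 and 31.5 RPKM, and had 18.0, 14.5 and 11.2 in CCL21+ and 4.24 to 5.35 in RANK+ libraries.

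**Figure D4:**
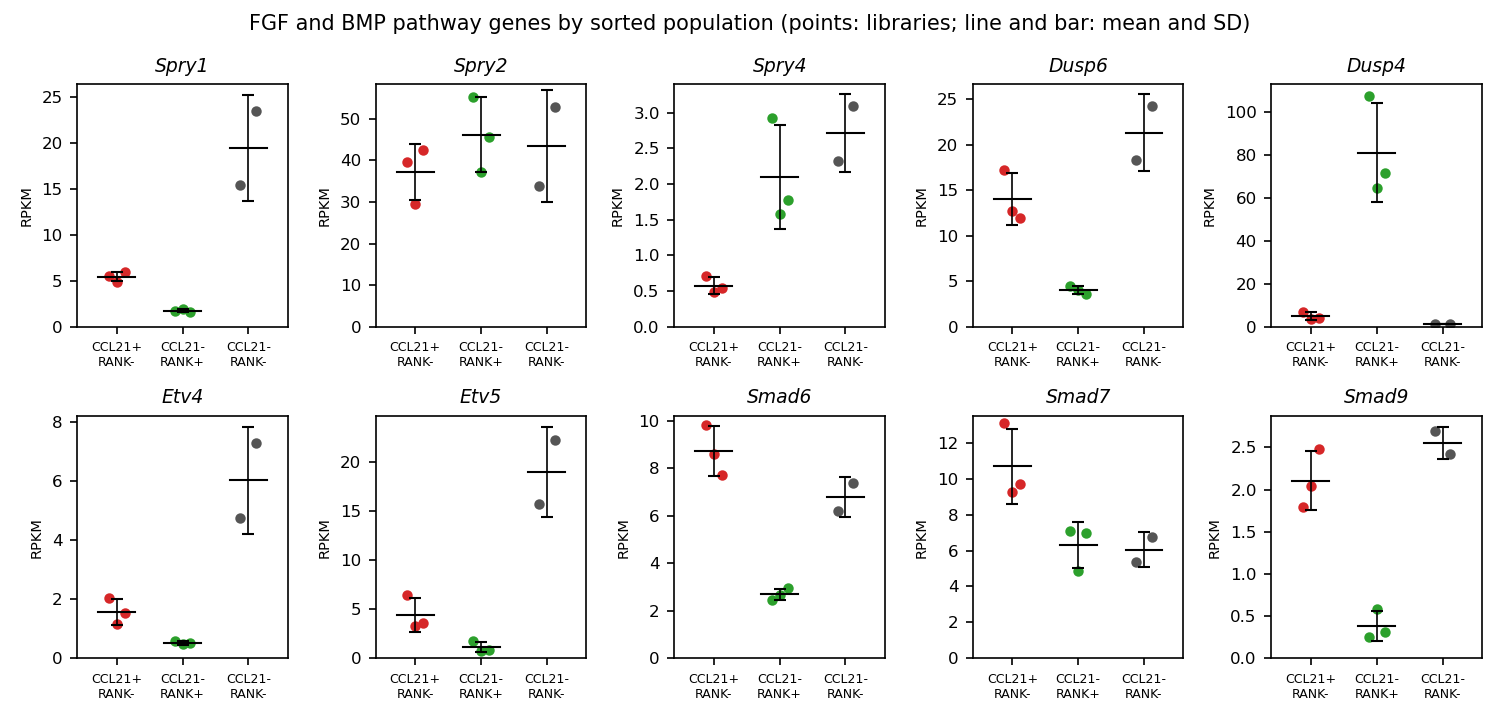
RPKM (linear axis from 0) in each of the 8 libraries (points, by population) for the pathway genes named in the panels, with a line at the group mean and a bar for the SD. Etv5, Etv4 and Spry1 were highest in the 2 reporter-negative libraries and lowest in the 3 RANK+ libraries, while Dusp4 was highest in the RANK+ libraries and Spry2 overlapped between all groups.

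The labelled cell type was checked against its markers. Epcam, the sort marker, had 49.5 to 156 RPKM, Foxn1, the defining transcription factor of TECs, had 50.7 to 105 RPKM, and Krt8 had 532 RPKM or more in every library. Psmb11, a cortical TEC gene, had 11.9 to 32.7 RPKM in RANK+ libraries and 202 to 333 in the other 5. The summed RPKM of the 11 epithelial markers was 5203, 5147 and 5929 in CCL21+ and 2052, 2200 and 1841 in RANK+ libraries. It was 4650 and 4977 in reporter-negative libraries, and Krt18 led the sum. Single markers did not all follow the sum. Of the 11, 7 were called higher and 2 lower in CCL21+ than in RANK+ TECs, beside 15.4% of all genes in each direction. In RANK+ against reporter-negative TECs, 4 were called higher and 6 lower, beside 14.4% and 15.1% of all genes.

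Genes of other cell types moved with the groups. The 10 mesenchymal markers summed to 53.4, 27.2 and 33.2 RPKM in RANK+ libraries, 5.87, 5.92 and 5.72 in CCL21+, and 5.26 and 3.46 in reporter-negative libraries, led by Col1a1, and 5 of 10 were called lower and 1 (Dpt) higher in CCL21+ than in RANK+ TECs. The 5 were Col1a1, Dcn, Pdgfrb, Lum and Col1a2, at means of 15.6, 8.85, 5.24, 4.42 and 2.59 RPKM in RANK+ TECs, and they were also called higher there than in reporter-negative TECs. The other markers, Col3a1, Dpt, Twist1, Pdgfra and Prrx1, were at means of 0.862, 0.169, 0.0692, 0.068 and 0.0324 RPKM in RANK+ TECs. The 10 thymocyte and haematopoietic markers summed to 54.9, 22.3 and 38.0 RPKM in RANK+ libraries, 10.6, 4.26 and 5.99 in CCL21+, and 3.61 and 3.11 in reporter-negative libraries. They were led by Cd52, at a mean of 23.2 RPKM in RANK+ TECs. There Rag1, Lck, Cd4 and Cd8a were at means of 4.96, 3.78, 2.56 and 1.53 RPKM, and Ptprc, which encodes CD45, Cd3e, Cd3g, Ptcra and Rag2 were each under 1. Cd52, Cd4 and Lck were called higher in RANK+ TECs in both comparisons with them, and Rag1 and Cd8a in that with reporter-negative TECs alone. The 8 endothelial markers summed to 5.48, 3.67 and 2.95 RPKM in RANK+ libraries, 0.622, 0.812 and 0.607 in CCL21+, and 0.952 and 0.953 in reporter-negative libraries. They were led by Tek, at a mean of 1.39 RPKM in RANK+ TECs, the only 1 of the 8 that was called, higher there than in both other groups.

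The sums of these 3 lists, like Fgf21, Fgf23, Fgf4, Fgfr3 and Bmp3, were highest in RANK+ replicate 1. Of the other members called higher in RANK+ TECs than in both other groups, Bmp2, Grem1, Acvr1c and Id2 were highest in RANK+ replicate 2. Fgf13 was highest in RANK+ replicate 3. Single markers differed, and Twist1, Pdgfra and Dpt were highest in a CCL21+ library, with Twist1 and Pdgfra under the RPKM threshold but higher in CCL21+ than in RANK+ TECs on the edgeR adjusted p (0.00477 and 0.0283). The part of these cell types in the higher FGF and BMP genes of RANK+ TECs was not tested. Without RANK+ replicate 1, 19 members were called between CCL21+ and RANK+ TECs, with the calls of Fgf4, Fgfr3 and Acvr2b lost, and 22 between RANK+ and reporter-negative TECs, with those of Fgf4, Fgfr3 and Acvr2a lost. The genes called in all fell as well, from 6618 to 6202 and from 6332 to 5820.

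The 6 parathyroid markers, with Pth, Gcm2 and Chga among them, were all called higher in CCL21+ TECs than in RANK+ TECs and than in reporter-negative TECs. They summed to 7250, 1814 and 2030 RPKM in CCL21+ libraries, led by Chga, 36.9, 22.7 and 25.1 in RANK+ libraries, and 56.5 and 57.7 in reporter-negative libraries. CCL21+ replicate 1, the highest, was also the highest of its group for Kl, Fgfr1, Flrt2 and Bmp6. The same held for other genes, such as Fgf21, Id4, Acvr1b, Dusp4 and Etv5, whereas Fgf14 and Bmpr1a were highest in CCL21+ replicate 3. The part of parathyroid cells in any of these genes was not tested. Without that library, Bmp6 was still called higher in CCL21+ than in reporter-negative TECs. Fgfr1 was then not called, at a log2 fold change of 1.81 in place of 2.47. Fgf21 was not called either, at 1.10 in place of 1.21. The call of Fgfr1 was also lost without either reporter-negative library, at 2.41 and 2.53.

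**Figure D5:**
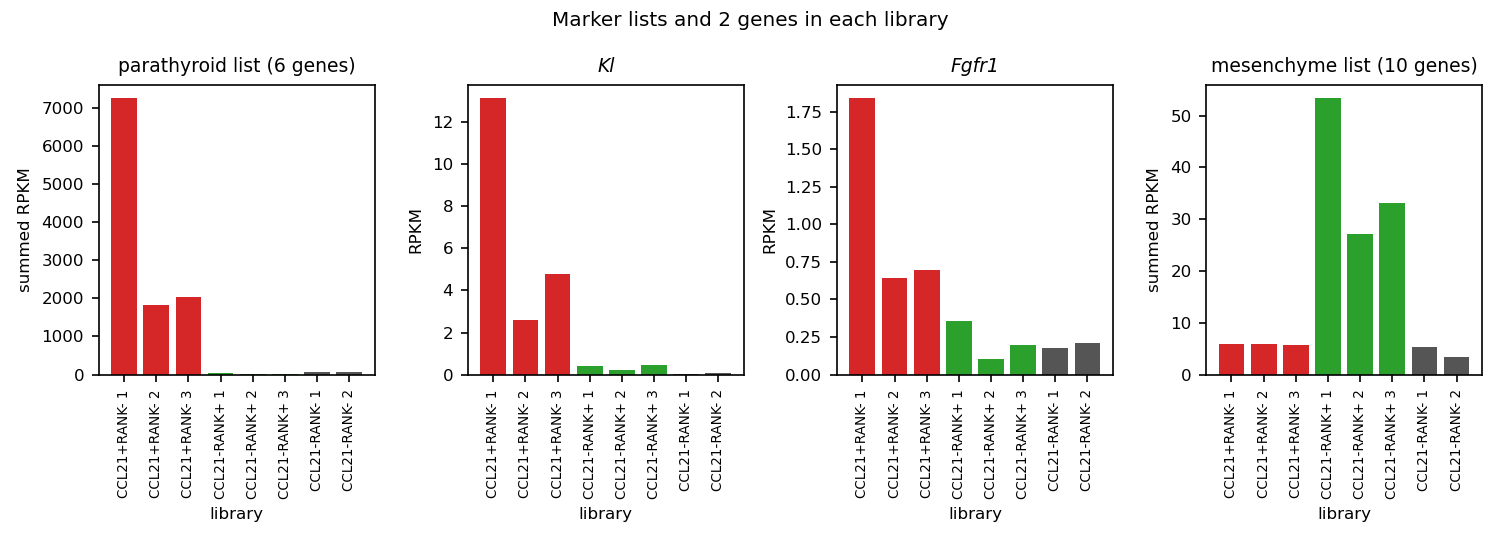
Bars from 0 for each of the 8 libraries give the summed RPKM of the parathyroid and mesenchymal marker lists and the RPKM of Kl and Fgfr1, coloured by population (CCL21+ red, RANK+ green, reporter-negative grey). CCL21+ replicate 1 is the highest library for the parathyroid list (7250), Kl (13.1) and Fgfr1 (1.84), and the mesenchymal list is highest in the RANK+ libraries.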

How the data were processed

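RNA-sequencing of CD45-EpCAM+ TECs sorted at E17 was analysed for 3 populations and 8 libraries. The authors deposited 1 table of RSEM expected counts per gene, not normalized or filtered, in which reads that match several genes are divided among them. The submitters' processing notes name bcl2fastq 2.20, Trimmomatic, STAR 2.5.1, RSEM 1.3.1 and the mm10 build, while the methods name CLC Genomics Workbench. The methods and the labels name different library kits (TruSeq Stranded Total RNA and NEBNext Ultra II Directional), and the strand setting in counting is not given in the sources used here. All 55450 genes matched GENCODE M21.

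Counts were rounded and tested with edgeR 4.0.16 in R 4.3.3 (TMM, default expression filter, quasi-likelihood test, Benjamini-Hochberg adjustment over 21451 genes), with 1 model of 3 group means over all 8 libraries. Standard errors came from the quasi-likelihood F. RPKM used library totals and merged exon length. The share of counts in Gm26917 was 6.89% to 19.4% and in Gm42418 1.47% to 10.7%, so RPKM of the other genes is lower by as much. Totals of 42751858 to 71625319 counts make the spread between libraries (edgeR's common coefficient 0.326) larger than counting error for expressed genes, and intervals and floors cover counting error only. Counts of replicates differed beyond sampling noise, so each counted as 1 replicate.

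Any member could be named. Values by library, or their range, are given for members called in at least 1 comparison and the most abundant of each role, and for pathway genes up to 4 called per list, comparison and direction by size of fold change, plus the Spry genes, Dusp6, Etv4, Etv5, Smad6 and Smad7. Members, pathway lists and marker lists were chosen with earlier results of these data known. The values of 1 gene of the BMP-activin list that this rule names are not reported here. Of the listed symbols, Spry3 and Hjv were not matched to the table. Promoters and their coordinates are from RefSeq GRCm38.p6, with 40 of 54 members matched. Alternatives were DESeq2's size factors, upper-quartile scaling, DESeq2 1.42.0 (Wald test), other filters, fewer libraries in the fit, the replicate block, other thresholds, leaving out Gm26917 and Gm42418, and leaving out each library. The scripts were tested on simulated data. Figures were drawn with matplotlib 3.10.9.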

Additional observations from a re-analysis of the deposited data

How the results depend on the processing

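No called member reversed its direction under any alternative run. Of the member calls, 17 of 22 between CCL21+ and RANK+ TECs, 5 of 8 between CCL21+ and reporter-negative TECs and 17 of 25 between RANK+ and reporter-negative TECs held under each omission of 1 library and each alternative that keeps the thresholds and could test them. Of these, Fgf23 and Grem1 in both comparisons with RANK+ TECs and Fst between the other two groups were not tested with at least 10 counts required in every library, which leaves 15, 4 and 15 that were tested throughout and held. With that filter 18, 8 and 18 members were called. On the adjusted p alone, 11516 genes and 36 members passed between CCL21+ and RANK+ TECs, and 10501 genes and 38 members between RANK+ and reporter-negative TECs, since low genes and small changes then count. With a fold change over 2, 1030 genes were called between CCL21+ and reporter-negative TECs in place of 1720. Leaving out 1 library at a time, the genes and members called ranged from 6202 to 6714 and 19 to 24 between CCL21+ and RANK+ TECs, from 657 to 2066 and 5 to 12 between CCL21+ and reporter-negative TECs, and from 5347 to 6546 and 21 to 25 between RANK+ and reporter-negative TECs. The low end between CCL21+ and reporter-negative TECs was reached without reporter-negative replicate 2 (657 genes, 5 members), and 772 genes were called without reporter-negative replicate 1, where the lone library left is assumed to vary like the other groups. DESeq2's size factors moved the median of all genes between RANK+ and reporter-negative TECs by 0.14 on the log2 scale and upper-quartile scaling by 0.12, and Acvr2a and Bmp7 then missed the fold threshold.

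Same-numbered CCL21+ and RANK+ libraries deviated from their group means with correlations of 0.13, 0.049 and 0.071 across genes, and not every pair was over 0.1, so the block was kept as an alternative. Within these 2 groups each library correlated best with its own number, whereas the 4 same-numbered pairs with reporter-negative libraries had correlations from -0.12 to -0.041. Whether same-numbered libraries share an origin is not given in the sources used here. With the replicate block 6617, 1913 and 6324 genes and 22, 10 and 25 members were called in the order above, and Bmp7 was lost between RANK+ and reporter-negative TECs. The 25 therefore include a gene that was not called without the block. Between CCL21+ and reporter-negative TECs, where 8 members were called, 10 were called with no expression filter. There were 11 with DESeq2's Wald test and 12 with only the libraries of the groups compared. The members gained are not named here.

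With 2 reporter-negative libraries, differences from that group rest on few samples. Members under 1 RPKM, most of them FGF ligands, could not be called whatever their fold change.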
